A study of Mus musculus with 12 samples.

Results

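The expression of 10 circadian clock genes (Per1, Per2, Per3, Cry1, Cry2, Bhlhe40, Bhlhe41, Dbp, Nr1d1 and Arntl) was followed in the auditory cortex of acute mouse brain slices exposed to a pharmacological cocktail that drives neuronal activity. The genes were picked by symbol, and all 10 of 10 were found among the 20989 gene loci of each library. All 10 also lay among the 12032 loci with a mean expression of at least 1 FPKM, which were tested together. FPKM counts the sequenced fragments of a gene relative to transcript length and to the total on protein coding genes, so that levels can be compared between genes. Coronal slices came from 6 C57bl6/J mice aged 4 weeks, and the hemispheres of a slice were separated at the midline. From each mouse, one hemisphere stayed for 1 h in artificial cerebrospinal fluid (aCSF, control), and the other spent 1 h in cocktail aCSF. The cocktail held 50 µM bicuculline methiodide, which blocks GABA-A receptors, 100 µM norepinephrine, 50 µM carbamoylcholine, an agonist of acetylcholine receptors, 100 µM dopamine, 40 µM ascorbic acid and 100 µM serotonin. According to the methods, both hemispheres then rested in aCSF for 1 h before the auditory cortex was dissected. The agents were given only together, so no value below belongs to one of them. Polyadenylated RNA of the 6 control and 6 cocktail hemispheres was sequenced, giving single reads 50 bp long. The hour of the day at which the mice were killed is not given in the sources used here.

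The circadian clock of mammalian cells is a transcriptional feedback loop. Arntl (also called Bmal1) and Clock encode the activators, which pair on E-box sequences and switch on the Per and Cry genes, whose proteins then repress the activators. Nr1d1 closes a second loop by repressing Arntl, and Dbp carries the rhythm to output genes through D-box sequences. The loop runs in most tissues, cortex included, and in the suprachiasmatic nucleus of the hypothalamus Per1 and Per2 are also induced by light through cAMP and calcium signals. Bulk tissue was measured here, so fewer cells of a type and less RNA per cell cannot be told apart.

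Between 10601067 and 19768881 reads per control library and between 13544297 and 17643462 per cocktail library lay behind the values, as recovered from the confidence interval that accompanies each FPKM. The control library of mouse 1 stood apart. It was the deepest, had the lowest summed FPKM (290155 against 306085 to 321759 in the other 11 libraries), and had a median correlation of 0.984 with the other control libraries over the tested loci, against 0.991 to 0.993 for the other control libraries. Results of the cocktail comparison that turned on this mouse are therefore also given without it. Markers of cortical excitatory neurons were high, with a summed FPKM of 1462 to 1586 for 6 markers in control and of 1396 to 1590 in cocktail libraries. The 7 markers of the hypothalamus and suprachiasmatic nucleus stayed at or below 1.32 FPKM, and Six6 and Nms were at 0 in all 12 libraries. In the lists of markers for neurons, glia, endothelium, choroid plexus, striatum, thalamus and hippocampus, no gene that could be tested passed between cocktail and control. All 5 oligodendrocyte markers had positive log2 fold changes (0.072 to 0.16), with a summed FPKM of 1846 to 2406 in control and 2149 to 2487 in cocktail libraries. So had all 5 inhibitory neuron markers (0.031 to 0.10), with a summed FPKM of 452 to 514 in control and 483 to 532 in cocktail libraries, and 4 of 5 astrocyte markers (-0.060 to 0.11). Microglia markers ranged from -0.20 to 0.10 with 3 of 5 negative, and striatum markers from -0.17 to 0.021 with 3 of 4 negative. The part of all these markers in the values below was not tested. All 10 genes of a list of activity-regulated genes rose in the cocktail (Benjamini-Hochberg adjusted p under 0.05 from limma), against 1.22% of all loci. This list was chosen with earlier results of these data known, so the rise is a description and not an independent check. The median log2 fold change of the 10 was 0.83. All 10 had their smallest within-mouse difference in mouse 6 (median 0.57, against 0.76 to 1.01 in the other mice).

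In control hemispheres the clock genes spanned a wide range of levels. Nr1d1 was the highest at 114.9 ± 28.0 FPKM (SD, n = 6), followed by Per1 at 81.7 ± 15.6, Bhlhe40 at 60.3 ± 8.04 and Cry2 at 53.1 ± 3.29 FPKM (SD, n = 6 each). Each of these 4 genes overlapped in range with its neighbour in the order. Dbp followed at 34.0 ± 6.41 FPKM (SD, n = 6), with a range of 23.1 to 40.4 that touched neither the range of Cry2 above it nor that of Per2 below it. The 5 genes with the lowest levels were Per2 (14.1 ± 2.50), Arntl (12.5 ± 0.939), Bhlhe41 (10.8 ± 2.08), Cry1 (9.59 ± 1.98) and Per3 (7.40 ± 0.873 FPKM, SD, n = 6 each), and each overlapped in range with the next. Within families, the levels of the paralogs therefore differed widely, with Per1 above Per2 and Per3, Cry2 above Cry1, and Bhlhe40 above Bhlhe41 in every control library.

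**Figure D1:**
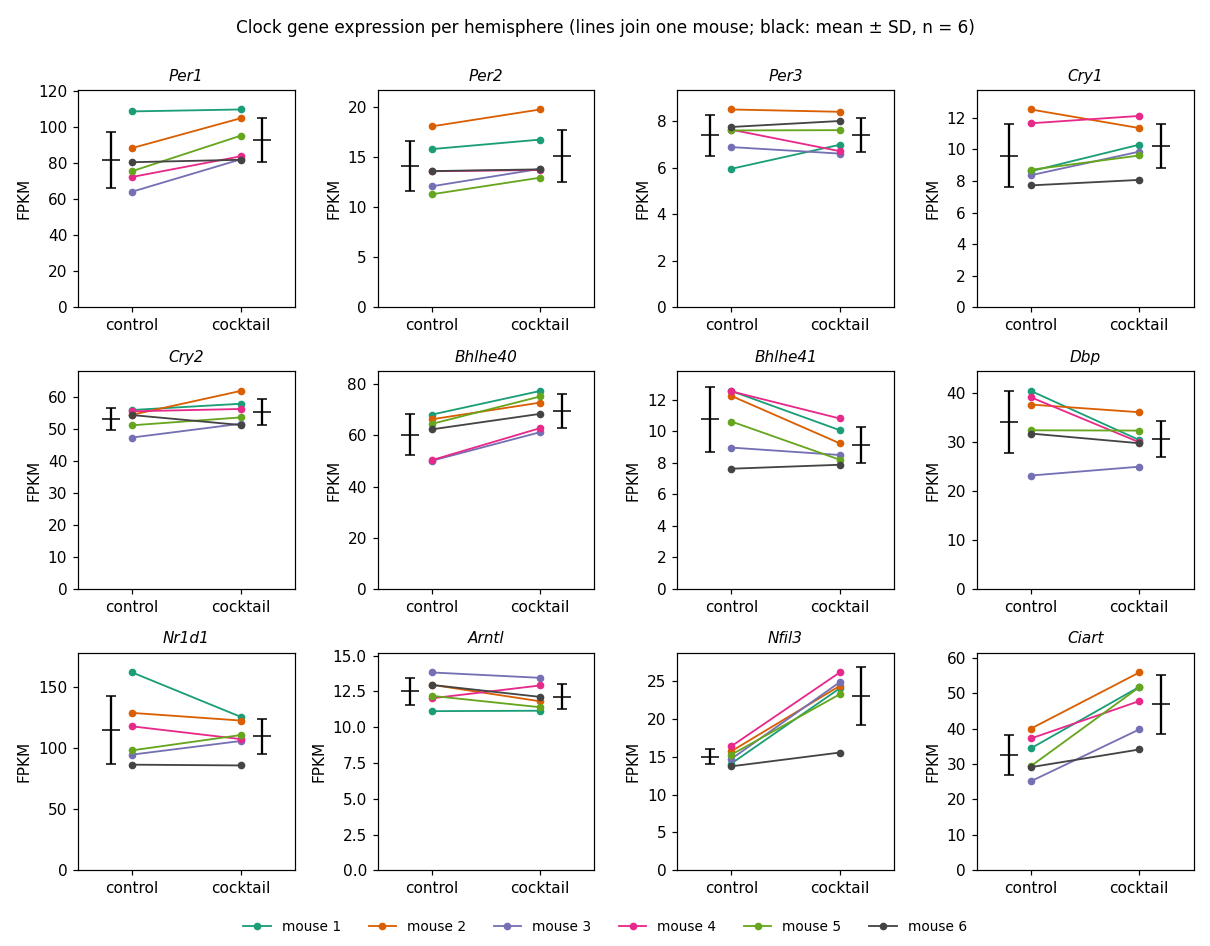
Expression (FPKM, linear axes from 0) of the 10 clock genes and of Nfil3 and Ciart in the control and cocktail hemisphere of each mouse, with 1 line per mouse and the mean ± SD of each group (n = 6) in black. The groups overlap for all 12 genes, and the lines of Per1, Per2 and Bhlhe40 go up in every mouse. Those of Nfil3 and Ciart climb most relative to their control level, least so in mouse 6.

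The response of the clock genes to the cocktail was small. Of the 10 genes, only Bhlhe40 passed the test in limma (Benjamini-Hochberg adjusted p under 0.05), and 6 had a positive and 4 a negative log2 fold change. Over all 12032 loci, 1.5% were called in either direction, 1.22% higher and 0.274% lower, and a single call among 10 genes is too few to set against these shares. The median log2 fold change of the 10 genes was 0.031, against 0.0076 over all loci tested. The extremes were 0.21 and -0.20, which correspond to 1.16 and 0.868 times the control level on the log2(FPKM + 1) scale. At an unadjusted p under 0.05 there were 3 of the 10 (Bhlhe40, Per1 and Bhlhe41), against 8.05% of all loci. Per1, Per2 and Bhlhe40 were higher in the cocktail hemisphere of every mouse, which held for 3.64% of all loci, and no clock gene was lower in every mouse, which held for 2.66% (6.3% in either direction). The FPKM ranges of control and cocktail hemispheres overlapped for all 10 genes, as they did for all but 0.914% of the loci tested.

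The Period genes encode the repressor subunits of the loop. Per1 occupies positions 69098956 to 69109957 of chromosome 11 (mm10, as all gene positions here). The values of Per1 were 64.2 to 108.8 FPKM in control (median 78.1) and 81.9 to 109.9 FPKM in cocktail hemispheres (median 89.6), with 3745 to 11255 reads per library. Every mouse had a higher value in its cocktail hemisphere, but the gain was close to nothing in mouse 1 (108.8 to 109.9) and mouse 6 (80.6 to 81.9) and clear in mouse 3 (64.2 to 82.1) and mouse 5 (75.6 to 95.3). Its log2 fold change was 0.20 (standard error 0.055, 95% interval 0.075 to 0.32), with an unadjusted p of 0.00416 and an adjusted p of 0.167 from limma, so Per1 was not called. Flipping the signs of the differences of the 6 mice in an exact, two-sided permutation test gave p = 0.03125, the smallest that 6 pairs allow. Per1 was called in none of the 14 other settings tried. Its adjusted p from limma was 0.0545 without mouse 1, 0.119 to 0.525 without one of the other mice and 0.999 without the mouse as a block, and with voom on the recovered reads the log2 fold change was 0.13 (adjusted p = 0.522).

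Per2, on chromosome 1 from 91415982 to 91459328, had 11.3 to 18.1 FPKM in control (median 13.6) and 13.0 to 19.8 FPKM in cocktail hemispheres (median 13.8). It too was higher in the cocktail hemisphere of all 6 mice, by 0.013 to 0.18 on the log2 scale, a smaller step than that between mice. On average Per2 differed by 0.10 on the log2 scale (standard error 0.048, 95% interval -0.0056 to 0.20, adjusted p = 0.667 from limma). Per3, on chromosome 4 from 151003655 to 151044665, was at the same level in both groups, with 5.96 to 8.52 FPKM in control (median 7.63) and 6.62 to 8.42 in cocktail hemispheres (median 7.31). It was higher in 3 mice and lower in 3, and its log2 fold change of 0.0023 (95% interval -0.12 to 0.13) had an adjusted p of 0.995 from limma. The largest difference for Per3 was that of mouse 1 (0.20), and without this mouse the log2 fold change was -0.037.

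The Per1 gene has a pair of annotated starts, and the FPKM pools transcripts from both. Their promoters are shown because Per1 is known to answer both the clock, through E-boxes, and cAMP signals, and because Per3, which stayed level, carries another clock sequence. Sequences are from RefSeq (GRCm38.p6), each with 300 bases that end shortly after an annotated start, and were found for 8 of the 10 genes, 10 promoters in all, but not for Per2 and Bhlhe40. Both strands were searched for the E-box CACGTG, for TGACGTC, which is the cAMP response element without its last base, and for the D-box TTATGTAA. Among all 32851 promoters in the table, 7.15% held the E-box, 3.21% TGACGTC and 0.938% the D-box. Matches are in capitals:
Per1, first start (chr11:69098699-69098998, + strand): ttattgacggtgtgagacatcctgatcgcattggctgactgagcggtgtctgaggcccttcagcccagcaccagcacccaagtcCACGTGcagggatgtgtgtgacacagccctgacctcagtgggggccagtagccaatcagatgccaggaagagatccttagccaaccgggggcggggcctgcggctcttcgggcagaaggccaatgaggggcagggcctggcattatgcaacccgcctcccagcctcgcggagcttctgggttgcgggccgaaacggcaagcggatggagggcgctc
Per1, second start (chr11:69099902-69100201, + strand): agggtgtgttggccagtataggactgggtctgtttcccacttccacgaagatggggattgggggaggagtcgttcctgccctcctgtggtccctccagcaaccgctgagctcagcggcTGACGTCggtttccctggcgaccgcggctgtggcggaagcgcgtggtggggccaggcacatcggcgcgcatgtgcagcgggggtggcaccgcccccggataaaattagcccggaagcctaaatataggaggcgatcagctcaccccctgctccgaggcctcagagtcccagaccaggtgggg
Per3 (chr4:151044616-151044915, - strand): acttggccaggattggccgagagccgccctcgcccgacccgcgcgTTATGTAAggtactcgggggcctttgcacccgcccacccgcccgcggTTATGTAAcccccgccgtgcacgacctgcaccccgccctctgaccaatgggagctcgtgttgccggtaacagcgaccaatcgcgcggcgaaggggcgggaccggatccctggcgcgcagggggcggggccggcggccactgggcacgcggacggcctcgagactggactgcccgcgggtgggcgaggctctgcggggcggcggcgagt
The promoter at the first start of Per1 held 1 E-box, which begins 166 bases before the start, and the one at the second start held 1 TGACGTC, 132 bases before it. The Per3 promoter held 2 D-boxes, 205 and 158 bases before the start, and only 0.0213% of all promoters held 2 or more. These matches are descriptions of sequence, not measured binding sites, and their relation to the response was not tested.

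The cryptochromes Cry1 and Cry2 encode the partners with which Period proteins repress transcription. Cry1, on chromosome 10 from 85131700 to 85185054, had 7.72 to 12.5 FPKM in control (median 8.66) and 8.06 to 12.1 FPKM in cocktail hemispheres (median 10.1). It was higher in 5 of 6 mice, with mouse 2 the other way (12.5 to 11.3), and its log2 fold change was 0.092 (standard error 0.058, 95% interval -0.034 to 0.22, adjusted p = 0.783 from limma). Cry2, on chromosome 2 from 92403647 to 92434069, was the steadiest of the abundant clock genes. Its FPKM was 47.3 to 55.9 in control (median 54.3) and 51.2 to 61.8 in cocktail hemispheres (median 54.9), and the log2 fold change was 0.059 (standard error 0.046, 95% interval -0.042 to 0.16, adjusted p = 0.841 from limma, and 0.0082 with voom on the recovered reads). The upper ends of these intervals correspond to 1.16 times the control level for Cry1 and 1.12 times for Cry2 on the log2(FPKM + 1) scale.

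Bhlhe40 and Bhlhe41 (also called Dec1 and Dec2) encode repressors that compete with the activators for E-boxes. Bhlhe40, on chromosome 6 from 108660629 to 108666925, was the one clock gene called, with 50.1 to 68.1 FPKM in control (median 63.4) and 61.3 to 77.4 FPKM in cocktail hemispheres (median 70.6). The values of the groups overlapped, but each mouse was higher in its cocktail hemisphere, by 0.13 (mouse 6) to 0.32 (mouse 4) on the log2 scale. Group means were 60.3 ± 8.04 FPKM in control and 69.7 ± 6.62 FPKM in cocktail hemispheres (SD, n = 6 each), and Bhlhe40 thus rose by 0.21 on the log2 scale (standard error 0.044, 95% interval 0.11 to 0.31, adjusted p = 0.0351 from limma). The call was fragile. It was lost without the mouse as a block (adjusted p = 0.763 from limma) and without any one of mice 2 to 6 (0.0644 to 0.197), although the log2 fold change stayed between 0.17 and 0.23 in all 14 other settings tried.

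Bhlhe41, on the same chromosome from 145858243 to 145865420, had 7.63 to 12.6 FPKM in control (median 11.4) and 7.88 to 10.8 FPKM in cocktail hemispheres (median 8.87). In contrast to its paralog, it was lower in 5 of 6 mice, most in mouse 2 (12.3 to 9.24), and the exception, mouse 6, had the lowest value of both groups. Its log2 fold change of -0.20 (standard error 0.063, 95% interval -0.34 to -0.067) had an adjusted p of 0.234 from limma, so Bhlhe41 was not called. The response of Bhlhe40 exceeded that of Bhlhe41 in all 6 mice, by 0.42 on the log2 scale on average (standard error 0.071). For this difference the same exact permutation test gave p = 0.03125 (0.156 after Benjamini-Hochberg adjustment over the 5 pairs of paralogs compared, which were chosen after their values were seen). The differences within the other 4 pairs (Per1 and Per2, Per1 and Per3, Per2 and Per3, Cry1 and Cry2) were 0.096, 0.19, 0.097 and 0.033, with p of 0.0938 to 0.688 in the exact permutation test. Exons of the noncoding gene Gm43909 on the opposite strand cover 19.0% of the exonic bases of Bhlhe41. The reads were strand specific, but the strand setting used for the FPKM is not given in the sources used here.

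**Figure D2:**
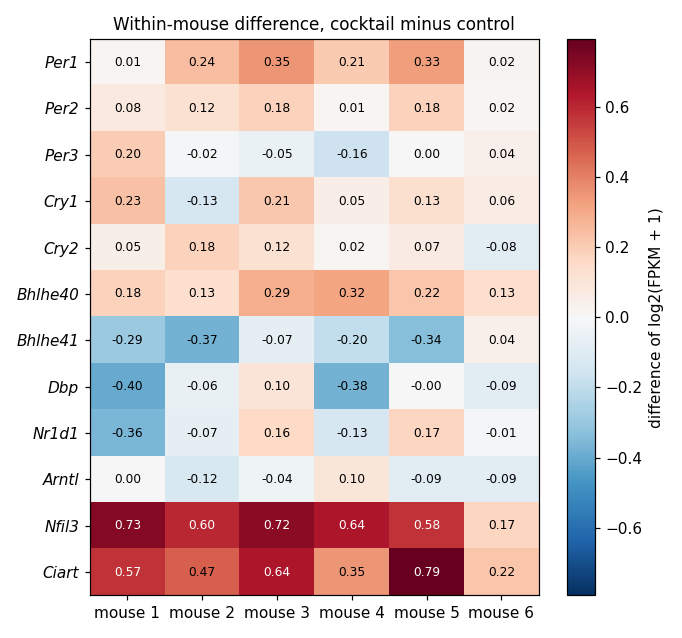
Difference of log2(FPKM + 1) between the cocktail and control hemisphere of each mouse (columns) for the 10 clock genes, Nfil3 and Ciart (rows), red where the cocktail hemisphere was higher and blue where it was lower. Bhlhe40, Per1 and Per2 are above 0 in all 6 mice, Bhlhe41 is below 0 in 5, and Nfil3 and Ciart show far larger differences, with the smallest of each in mouse 6.

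Dbp, Nr1d1 and Arntl represent the output and the second loop. Dbp encodes a transcription factor that binds D-boxes and lies on chromosome 7 from 45705247 to 45710203. Its FPKM was 23.1 to 40.4 in control (median 34.96) and 24.9 to 36.0 in cocktail hemispheres (median 30.1). The lower cocktail values came mainly from mouse 1 (40.4 to 30.3) and mouse 4 (39.1 to 29.9), while mouse 5 was level (32.3 in both hemispheres) and mouse 3 went up (23.1 to 24.9). On average Dbp differed by -0.14 on the log2 scale (standard error 0.068, 95% interval -0.29 to 0.012, adjusted p = 0.677 from limma), and -0.085 without mouse 1. Exons of Sphk2 on the opposite strand cover 18.0% of the exonic bases of Dbp. Sphk2 itself was at 7.26 to 9.49 FPKM over all 12 libraries, with a log2 fold change of -0.056.

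Nr1d1 encodes the nuclear receptor REV-ERB alpha, a repressor of Arntl, and lies on chromosome 11 from 98767932 to 98775377. It had 86.7 to 162 FPKM in control (median 108.3) and 86.05 to 126 FPKM in cocktail hemispheres (median 109.3). It was lower in 4 mice and higher in mice 3 and 5, and the largest difference was that of mouse 1 (162 to 126). This gave a log2 fold change of -0.041 (standard error 0.066, 95% interval -0.18 to 0.10, adjusted p = 0.927 from limma), and 0.023 without mouse 1. Annotated exons of Thra on the opposite strand cover 8.55% of its exonic bases, and Thra was at 138 to 159 FPKM, with a log2 fold change of -0.038. Arntl, on chromosome 7 from 113207465 to 113314126, varied little, with 11.1 to 13.8 FPKM in control (median 12.6) and 11.2 to 13.5 FPKM in cocktail hemispheres (median 11.97). Its log2 fold change was -0.040 (standard error 0.049, 95% interval -0.15 to 0.067, adjusted p = 0.897 from limma). On the log2(FPKM + 1) scale, a rise beyond 1.05 times or a fall below 0.903 times the control level lay outside this interval.

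Of 34 further genes in 3 lists (transcription factors of the loop, kinases, ubiquitin ligases and proteases that act on clock proteins, and clock outputs), 31 were tested and 20 had a positive log2 fold change, with a median of 0.012. Of these 31, 2 were called, both higher and both transcription factors of the loop, namely Nfil3 and Ciart, against 1.5% of all loci called and 1.22% called higher. At an unadjusted p under 0.05 there were 9 of the 31, against 8.05% of all loci.

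Nfil3 encodes a repressor that binds the same D-boxes as Dbp, and lies on chromosome 13 from 52967209 to 52981039. Its control hemispheres were tightly grouped at 13.8 to 16.4 FPKM (median 15.0), and 5 of the 6 cocktail hemispheres lay at 23.3 to 26.2 FPKM, while that of mouse 6 reached only 15.6. Nfil3 rose by 0.57 on the log2 scale, with means of 15.0 ± 1.00 FPKM in control and 23.1 ± 3.79 FPKM in cocktail hemispheres (SD, n = 6 each, standard error 0.070, adjusted p = 0.000841 from limma), and the call held in all 14 other settings tried. Ciart (also called Chrono), on chromosome 3 from 95878505 to 95882228, encodes a repressor of the activators Clock and Arntl. Its means were 32.5 ± 5.61 FPKM in control and 46.8 ± 8.27 FPKM in cocktail hemispheres (SD, n = 6 each). The range was 25.1 to 40.0 in control (median 31.9) and 34.1 to 55.8 in cocktail hemispheres (median 49.7), and each mouse was higher in its cocktail hemisphere. Ciart rose by 0.51 on the log2 scale (standard error 0.068, adjusted p = 0.00168 from limma), and the call was lost without the mouse as a block (0.0784) and with voom on the recovered reads (0.0528). Its promoter is shown for the E-boxes it shares with Per1 (first start, printed above), Cry1 and Bhlhe41, clock genes that were not called:
Ciart (chr3:95882179-95882478, - strand): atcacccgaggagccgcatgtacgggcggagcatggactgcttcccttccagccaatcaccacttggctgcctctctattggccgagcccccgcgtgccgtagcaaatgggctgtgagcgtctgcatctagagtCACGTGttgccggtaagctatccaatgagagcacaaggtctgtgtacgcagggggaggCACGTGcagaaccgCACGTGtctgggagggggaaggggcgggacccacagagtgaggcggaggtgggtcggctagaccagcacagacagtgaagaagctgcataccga
Cry1 (chr10:85185005-85185304, - strand): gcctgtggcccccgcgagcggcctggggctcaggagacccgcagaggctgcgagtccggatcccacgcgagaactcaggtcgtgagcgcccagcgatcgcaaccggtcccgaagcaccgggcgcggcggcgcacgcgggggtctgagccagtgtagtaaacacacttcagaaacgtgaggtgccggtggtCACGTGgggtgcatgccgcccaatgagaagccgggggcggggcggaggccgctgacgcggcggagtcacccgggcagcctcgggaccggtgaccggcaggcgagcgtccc
Bhlhe41 (chr6:145865371-145865670, - strand): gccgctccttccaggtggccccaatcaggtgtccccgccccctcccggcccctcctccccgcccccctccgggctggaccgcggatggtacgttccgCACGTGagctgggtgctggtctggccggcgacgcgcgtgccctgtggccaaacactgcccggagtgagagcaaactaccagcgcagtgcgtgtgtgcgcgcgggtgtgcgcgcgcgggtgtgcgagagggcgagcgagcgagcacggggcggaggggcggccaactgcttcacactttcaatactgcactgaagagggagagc
The Ciart promoter held 3 E-boxes, which begin 116, 58 and 44 bases before the start, and only 0.0883% of all promoters held 3 or more. Those of Cry1 and Bhlhe41 held 1 each, 60 and 153 bases before the start. The Nfil3 promoter held none of the 3 sequences searched, and neither did those of Cry2, Dbp, Nr1d1 and Arntl, in which a match further away from the start would not be seen. All these matches are descriptions of sequence, and their relation to the response was not tested.

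The remaining factors of the loop stayed near their control level. Clock, which encodes the partner of Arntl, had 6.90 to 10.9 FPKM in control and 9.29 to 10.9 FPKM in cocktail hemispheres. The lowest value, that of control mouse 1, is marked as a failed estimate in the deposited data, while all values of the 10 clock genes carry the status OK. The log2 fold change of Clock was 0.032 with this value (95% interval -0.12 to 0.19), and -0.048 without mouse 1. With voom on the recovered reads it was 0.38, where the failed estimate carries 6.69 reads. Npas2, the paralog of Clock, had a log2 fold change of 0.0064 (95% interval -0.096 to 0.11). Nr1d2, the paralog of Nr1d1, was at 0.055 (95% interval -0.13 to 0.25, and -0.041 without mouse 1), and Tef and Hlf, the D-box binding relatives of Dbp, were at -0.061 and 0.0037 (-0.060 for Hlf without mouse 1). The largest difference that did not pass was that of Rorb (-0.076, adjusted p = 0.88 from limma, and -0.15 without mouse 1), an activator gene of the ROR family. None of the 12 genes for kinases, ubiquitin ligases and proteases was called. At an unadjusted p under 0.05 in limma there were 2, Usp2 (higher) and Fbxl21 (lower), against 8.05% of all loci. The largest difference was that of Fbxl21 (-0.18, adjusted p = 0.527 from limma), which encodes a ligase subunit that acts on cryptochromes and rests on only 20 to 57 reads per library. For Fbxl21 it was -0.32 with 0.1 instead of 1 added to the FPKM, and -0.32 with voom on the recovered reads. None of the 9 tested output genes was called either. At an unadjusted p under 0.05 in limma there were 5, against 8.05% of all loci. Of these, Ccrn4l, Lonrf3, Cdkn1a and Sirt1 were higher and Tspan4 was lower. The largest difference was that of Lonrf3 (0.25, adjusted p = 0.228 from limma). Lonrf3 was at 0.17 without mouse 1, smaller in size than Tspan4 (-0.22 with all mice and -0.19 without mouse 1).

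**Figure D3:**
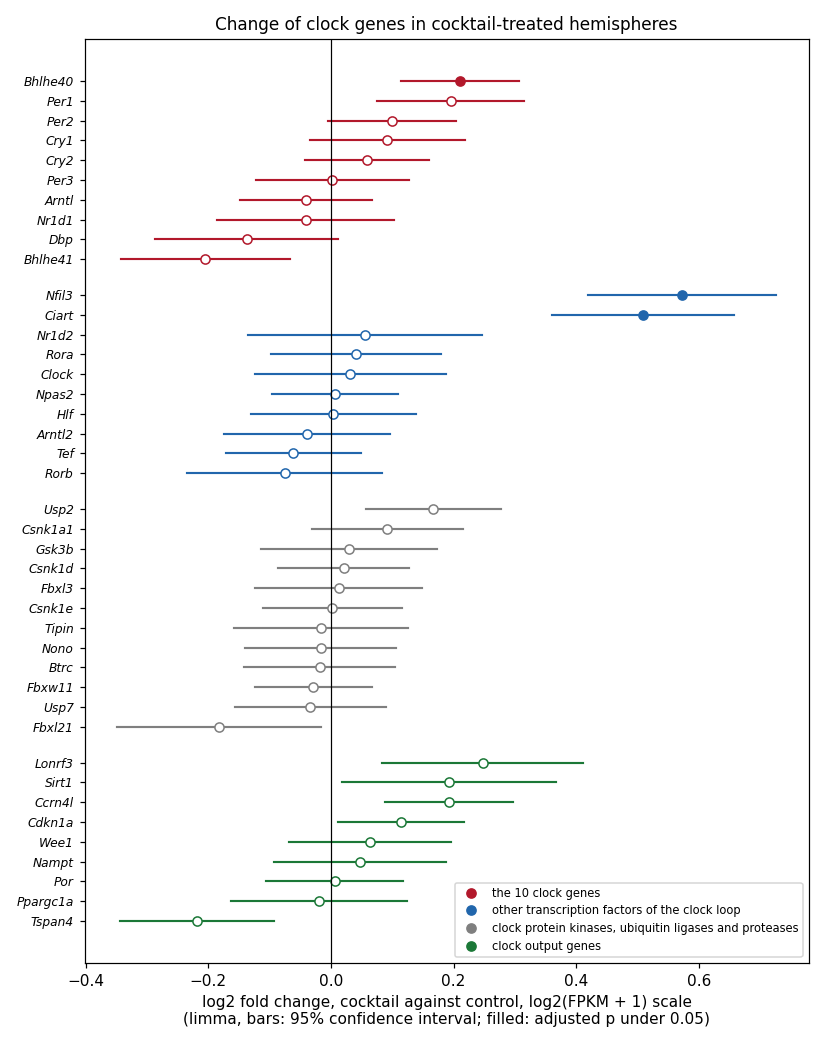
Log2 fold change (cocktail against control, log2(FPKM + 1) scale) with its 95% confidence interval from limma for the 10 clock genes and 31 other clock genes in 3 lists, n = 6 mice, with filled circles for an adjusted p under 0.05. Only Bhlhe40, Nfil3 and Ciart are filled, and the other genes lie between -0.22 and 0.25. The value of Clock includes 1 failed estimate, in control mouse 1.

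The genes of signals known to reach the clock gave a mixed picture. Of 13 genes for light input and coupling in the suprachiasmatic nucleus, 9 were tested and 1, Sik1, was called, against 1.5% of all loci. Unadjusted p from limma was under 0.05 for 5 of the 9, against 8.05% of all loci. Sik1, which encodes a kinase that restrains cAMP-driven transcription and limits light-driven clock resetting, rose from a mean of 12.2 ± 1.43 to one of 18.3 ± 1.55 FPKM (SD, n = 6 each), without overlap of the groups (log2 fold change 0.56, adjusted p = 0.000191 from limma). Adcyap1, which encodes the neuropeptide PACAP, had a log2 fold change of 0.29 and an adjusted p of 0.0722 from limma, with mouse 3 against the direction of the others, and was called only without that mouse (0.0202). Of 8 glucocorticoid-inducible genes 1, Sgk1, which encodes a kinase, was called, against 1.5% of all loci. Sgk1 rose from a mean of 43.7 ± 6.83 to one of 62.4 ± 4.64 FPKM (SD, n = 6 each, log2 fold change 0.52, adjusted p = 0.000841 from limma). The other 7 were not called. Of these, Mt1, a metallothionein gene, had the largest difference (0.063, adjusted p = 0.88 from limma). Of the 8, 1 had an unadjusted p under 0.05 in limma, against 8.05% of all loci, and their median log2 fold change was 0.039.

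Most of the clock genes varied widely between mice. The mean of both hemispheres differed between the highest and the lowest mouse by 1.67 times for Nr1d1, 1.56 times for Per2, 1.53 times for Dbp, 1.51 times for Cry1 and Bhlhe41 and 1.49 times for Per1. The standard deviation of the mouse means on the log2 scale was 0.25 for Nr1d1, more than for 97.8% of the tested loci, and 0.21 to 0.22 for Per1, Per2, Cry1, Bhlhe41 and Dbp, more than for 94.4% to 96.0% of them, against a median of 0.10 over all loci. Bhlhe40 was at 0.17 and Per3 at 0.13, more than for 86.0% and 69.0% of the loci, while Cry2 (0.086) and Arntl (0.090) were below that median. Mouse 1, whose control library stood apart, was the highest mouse for Nr1d1, Per1 and Bhlhe40. The spread was not computed without this mouse. Nor were the loci matched for level, although adding 1 to the FPKM shrinks the spread of loci with low FPKM.

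The order of the mice was partly shared between genes and hemispheres. Mouse 1 had the highest FPKM of Per1 and Nr1d1 in both its control and its cocktail hemisphere, and mouse 2 had the highest Per2 in both. Mouse 3 had the lowest Dbp in both hemispheres (23.1 and 24.9 FPKM) and the lowest Per1 of the controls (64.2). Arntl ran the other way, with its highest level in both hemispheres of mouse 3 (13.8 and 13.5 FPKM) and its lowest in both of mouse 1 (11.1 and 11.2), a span of only 1.24 times in control. Mouse 6 had the lowest Nr1d1, Cry1 and Bhlhe41 in both hemispheres. No test of these orders was made, and their source was not tested.

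**Figure D4:**
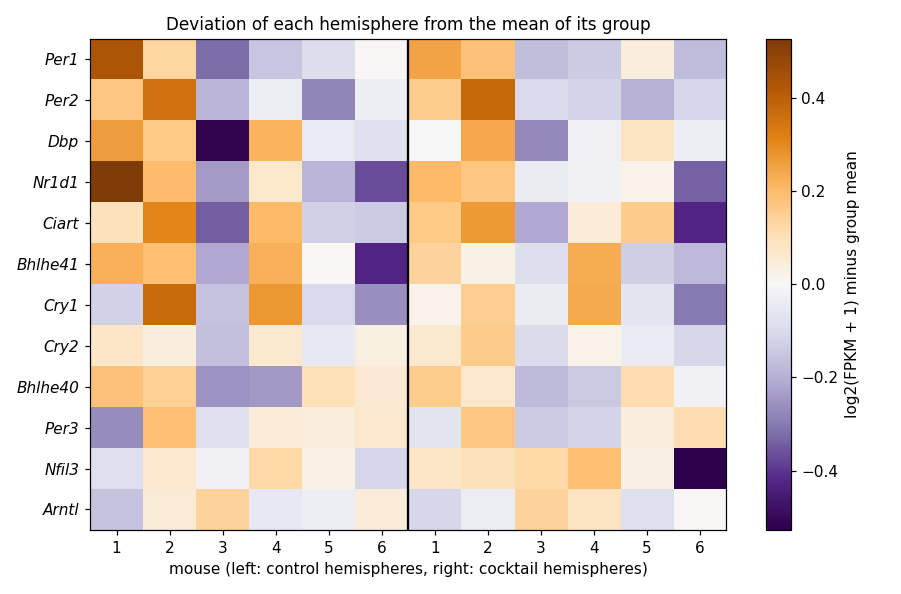
Deviation of log2(FPKM + 1) in each hemisphere from the mean of its group, for the 10 clock genes, Ciart and Nfil3 (rows) in the 6 control (left) and 6 cocktail (right) hemispheres, orange above and purple below the group mean. Mice 1 and 2 are mostly orange for Per1, Per2, Nr1d1 and Ciart on both sides, mouse 3 is purple for these genes and Dbp on both sides, and Arntl, with a much smaller span, is lowest in mouse 1 and highest in mouse 3 on both sides.

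Among all other tested loci, those whose log2(FPKM + 1) over the 12 libraries was most like that of Per1 were Atf4 (Pearson's r = 0.879), Myo1c (0.878) and Irs2 (0.868). Those most like Dbp were Atp8b2 (0.892), Zfp768 (0.883) and Tspan4 (0.853). These correlations describe 12 libraries from 6 mice, which share mouse, treatment and library depth, and they were the highest over all other loci tested. Of these 6 genes only Irs2, which encodes an adaptor of the insulin receptor, was called, with a log2 fold change of 0.51 (adjusted p = 0.00141 from limma, and 0.0866 with voom on the recovered reads). Atf4, which encodes a stress-response transcription factor, had a log2 fold change of 0.19 (adjusted p = 0.165 from limma), with mouse 1 as the one mouse that was lower in the cocktail hemisphere. Without that mouse Atf4 was called (0.24, adjusted p = 0.00458 from limma).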

How the data were processed

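Auditory cortex RNA of 6 control and 6 cocktail hemispheres was analysed, paired by the mouse named in the labels. The authors removed ribosomal reads with BWA 0.6.1, aligned the rest to mm10 with TopHat 1.4.1 (1 placement per read) and ran Cufflinks 1.3.0 with bias correction. Its FPKM values, deposited for each library, were used as they stand. Reads per value were recovered from the FPKM interval (82.8% of 36412 values under 20 reads were whole to within 0.05), and they cover counting error only. The deposited table of the authors' DESeq2 comparison (mean count, fold change, standard error, statistic, p-values, group means of FPKM) was not used.

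The test used limma 3.58.1 (R 4.3.3) on log2(FPKM + 1), for loci averaging 1 FPKM or more, with terms for treatment and mouse, a variance trend and Benjamini-Hochberg adjustment over all 12032 loci at 0.05. Fold changes on this scale understate changes of genes with low FPKM. For single genes, an exact two-sided permutation test flipped the signs of the 6 within-mouse differences. The fit was tested on simulated data.

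Deviations from the group mean correlated by 0.216 to 0.406 between hemispheres of the same mouse, and by -0.42 to 0.445 (median -0.0714) between different mice. The libraries were paired because the labels name the mouse, and every same-mouse correlation was above 0.1. Libraries of a group differed beyond sampling noise (chi-square per gene at least 7.10). Positions were taken from the files and count from 1, and exon overlaps are from GENCODE M21. Named genes are the 10 clock genes, in each list those called and the largest difference not called, and the 3 loci most like Per1 and Dbp. Other genes were named for their role in the loop or for overlapping exons, some after their values were seen. Genes and lists were chosen with earlier results of these data known. Figures were drawn with matplotlib 3.10.9.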

Additional observations from a re-analysis of the deposited data

Results flagged for a closer look

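A value far from the remaining 5 of its group was found 8 times among 126 groups. Chance gives about 1 in 20 groups, or 6.3, so the number found was near that of chance. The groups are also not independent, since within-mouse differences are made from the control and cocktail values. Nfil3 had 15.6 FPKM in the cocktail hemisphere of mouse 6 against 23.3 to 26.2 FPKM in the other mice, a gap of 0.728 times the span of the group, and its within-mouse log2 difference was 0.168 in this mouse against 0.576 to 0.73. Egr1, on the list of activity-regulated genes, also had its smallest log2 difference in mouse 6 (0.225 against 0.525 to 0.693), and so had all 10 genes of that list, as well as Sik1, Sgk1 and Irs2. Adcyap1 had 9.98 FPKM in the cocktail hemisphere of mouse 3 against 11.8 to 12.6 FPKM in the others. The control library of mouse 1, which stood apart in the whole series, gave the other 4 values. Clock had 6.90 FPKM there, marked as a failed estimate, against 9.45 to 10.9 in the other controls, and its log2 difference was 0.428 in mouse 1 against -0.143 to 0.028. Irs2 had 59.8 FPKM in this library against 36.6 to 45.2, and the log2 difference of Atf4 was -0.0809 in mouse 1 against 0.199 to 0.283. Mouse 6 also showed the smallest difference of Ciart (0.22 against 0.35 to 0.79), and with 0.024 it was second only to mouse 1 (0.014) in the small differences of Per1. The cause was not tested.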

How the results depend on the processing

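The number of loci called was 180 (147 higher), 88 with no replicate block (87.5% higher, against 81.7%) 118 with voom on the recovered reads and 131 for loci with a mean of at least 5 FPKM (94.7% higher), and lay between 104 (mouse 4 left out) and 181 (mouse 6 left out) when one mouse was dropped. Of the 10 clock genes 1, Bhlhe40, was called, and 0 were called with no replicate block, no filter on low FPKM, median-of-ratios scaling, quantile normalization, no variance trend or voom. With one mouse left out the number ranged from 0 to 1, and it was 1 only without mouse 1. The adjusted p of Bhlhe40 from limma ranged from 0.0274 to 0.763 over the 14 alternatives, and it was called in 3 of them. Of the 31 other clock genes 2 were called, 1, Nfil3, with no replicate block and with voom, and 3 with median-of-ratios scaling, where Ccrn4l was added (log2 fold change 0.18, adjusted p = 0.0461 from limma). Leaving out the pairing by mouse changed no other call of the genes named from the lists. The filter at 5 FPKM gave no value for Fbxl21 and Lonrf3.

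The log2 fold change of Per3 changed sign to -0.0049 (median-of-ratios), -0.013 (quantile) and -0.052 (voom), and to -0.037 without mouse 1 and -0.0056 without mouse 6, with a range of -0.037 to 0.035 over the mice left out. That of Nr1d1 changed sign to 0.023 without mouse 1 (range -0.084 to 0.023), and that of Mt1 to -0.0065 with quantile normalization. Npas2 changed sign to -0.00178 (median-of-ratios), -0.000996 (quantile) and -0.045 (voom), and Hlf to -0.0047 and -0.019 under the same scalings. Over the mice left out, Npas2 ranged from -0.0079 to 0.018, Hlf from -0.060 to 0.034, Clock from -0.048 to 0.067 and Nr1d2 from -0.041 to 0.11. None of these was called. With voom, Per1 moved from 0.20 to 0.13, Per2 from 0.10 to 0.045, Cry2 from 0.059 to 0.0082, Nr1d1 from -0.041 to -0.11, Arntl from -0.040 to -0.080 and Clock, with its failed estimate, from 0.032 to 0.38. With one mouse left out, Cry2 ranged from 0.035 to 0.088, Dbp from -0.19 to -0.085 and Arntl from -0.067 to -0.023. Adcyap1 was called without mouse 3, Atf4 without mouse 1 and with voom, and Irs2 was not called with voom. The median over all loci stayed between -0.013 and 0.019. The causes were not tested. The settings were read for genes outside the 10 only after the data were seen. Depth limits genes with few reads, such as Fbxl21, more than the clock genes themselves, which had 227 reads or more in every library.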
